A study of Mus musculus with 4 samples.

Results

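The genes described here make up the multiciliated cell program, that is, 10 regulators that commit a cell to making many motile cilia and 37 genes for the parts of those cilia. They were picked by symbol, by a rule that applies no measured value but was drawn up with earlier results of these data known: every dynein axonemal heavy chain (Dnah), dynein assembly factor (Dnaaf) and radial spoke (Rsph) gene in the count tables, and 25 genes listed by name. The 47 members are among 24421 gene symbols counted. Symbols matched directly for 44, and 3 stand in the tables under older symbols, namely Deup1 as Ccdc67, Dnai1 as Dnaic1 and Dnai2 as Dnaic2.

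The libraries were made from the poly(A) RNA of neural stem cells of C57BL/6J mice. Cerebral cortex was taken at embryonic day 17, dissociated, and grown for 1 day in proliferation medium with B27 supplement, bFGF and EGF. The 2 control libraries came from Prrc2bf/f cells, in which both alleles of Prrc2b carry loxP sites and no Cre is named. The 2 knockout libraries came from Prrc2bf/f; Nestin-Cre cells, which hold the same floxed alleles and a Cre recombinase under control of the Nestin gene, which neural progenitors use, so cells outside the neural lineage keep the gene. The comparison asks which transcripts differ in neural progenitors when Prrc2b is targeted.

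Gene totals were 25936794 to 28263272 counts per library, so 1 count stood for 0.0354 to 0.0386 counts-per-million (CPM). Whether the libraries of a group stem from separate embryos is not stated in the labels. The p-values hence measure variation among these 4 libraries, which may be technical. Prrc2b stood at 587 and 593 CPM in control and at 576 and 574 CPM in the knockout-labelled libraries, a gene total that cannot check a deletion of part of the gene. The genes Uty, Kdm5d, Ddx3y and Eif2s3y of the Y chromosome had 180 to 667 counts in each control library and 0 in both libraries labelled knockout, while Xist, which female cells express, was at 1668 and 1611 CPM in control and at 2214 and 2124 CPM in the knockout-labelled libraries. Both control libraries thus hold both Y-linked RNA and Xist, as a mix of male and female cells would. Genotype and the share of male cells cannot be told apart in any value below. Defining markers of radial glia were present in all 4 libraries, with Sox2 at 430 to 457 CPM and Pax6 at 47.5 to 50.2 CPM. Presence did not mean equal levels. Nes, the gene named in Nestin-Cre, was at 630 and 627 CPM in control and at 541 CPM in both libraries labelled knockout. Vim was at 2993 and 2994 against 2417 and 2425 CPM. Of the 11 radial glial markers described below, 6 were lower and 2 higher. Levels below are CPM on the gene total. Log2 fold changes are libraries labelled knockout over control, ± standard error, from the edgeR quasi-likelihood test, and a gene "passed" at an adjusted p under 0.05 over the 15012 genes tested.

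Motile cilia move cerebrospinal fluid over the walls of the ventricles and are carried by ependymal cells and, in a simpler form, by choroid plexus epithelium. A cell enters this fate when Gmnc (GEMC1) and Mcidas (multicilin), coiled-coil relatives of geminin, work with E2F factors to switch on genes for the mass production of centrioles and the transcription factor gene Foxj1. Foxj1 and the RFX factors then turn on the axoneme genes, which encode the dynein arms, radial spokes and microtubule partners that let a cilium beat. Notch signalling holds the program back in neighbouring progenitors.

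Gmnc, at the head of the program, was 5.90-fold higher in the libraries labelled knockout, while Foxj1 and Rfx2, which act further down, were lower, at 0.733 and 0.542 of control. Of 7 regulators counted often enough to test, 2 rose, 3 fell and 2 did not pass. Of 34 axoneme genes tested, 3 rose, 2 fell and 29 did not pass. Over all genes tested, 33.1% passed, 15.1% as higher and 18.1% as lower, so the 14.7% of axoneme genes that passed lay under this background and the 71.4% of regulators above it, with no test between the lists. Among the 6273 genes whose mean level lay in the range of the tested axoneme genes, 0.439 to 23.3 CPM, 23.7% passed. The median log2 fold change was -0.27 for regulators and 0.02 for axoneme genes, against 0.0047 for all genes tested. The axoneme median fell below 0 in 4 alternatives, to -0.02 with no filter on low counts and to -0.07, -0.0068 and -0.0042 without knockout replicate 1, knockout replicate 2 and control replicate 1, so no direction is read from it. With DESeq2, 3 regulators and 1 axoneme gene passed.

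**Figure D1:**
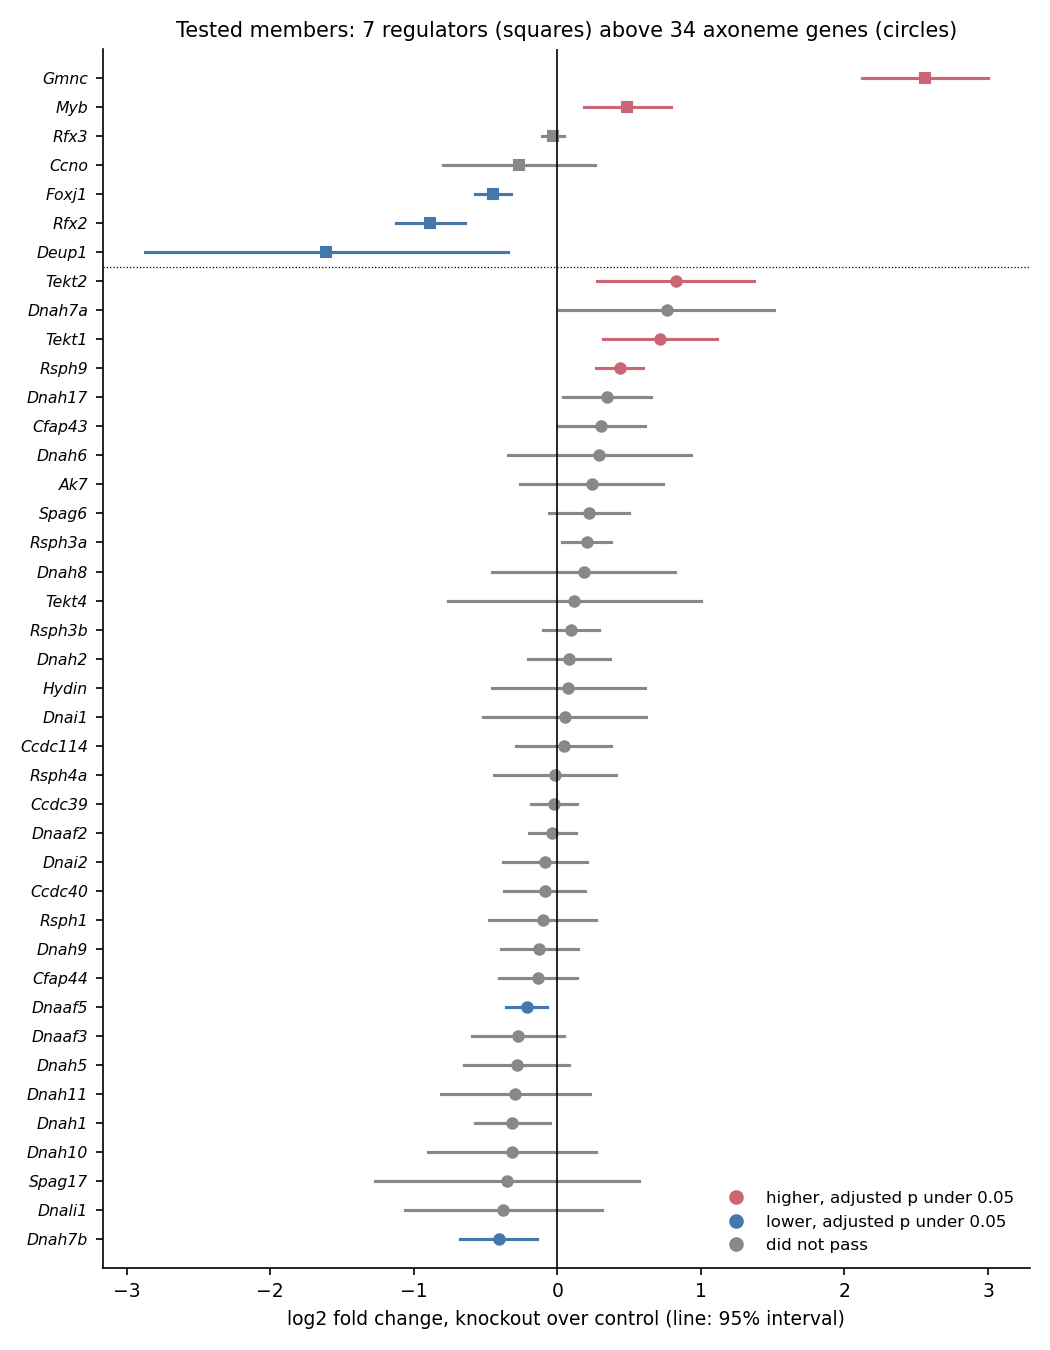
Log2 fold change (x axis, knockout over control) of the 41 tested members, with the 7 regulators as squares above the dotted line and the 34 axoneme genes as circles below it; lines are 95% intervals from the quasi-likelihood fit, and colour marks genes that passed as higher, passed as lower, or did not pass. Gmnc at 2.56 stands far to the right of all others, Deup1 at -1.61 has the widest interval among the regulators, and the axoneme genes lie between -0.41 and 0.82.

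Gmnc lies on the minus strand of chromosome 16 from 26913553 to 26991652 (GRCm38, the assembly of mm10). It was counted at 0.755 and 0.920 CPM in control and at 5.11 and 4.90 CPM in the libraries labelled knockout, or 20 and 26 against 144 and 127 counts. Both knockout libraries lay above both controls with a wide gap. The log2 fold change was 2.56 ± 0.22 (adjusted p = 1.9e-12), a ratio with a 95% interval of 4.36 to 7.98. It passed in all 14 alternative analyses, with values from 2.43 to 2.71 and adjusted p from 2.4e-20 to 4.8e-06.

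Markers of choroid plexus epithelium, a tissue whose cells are themselves multiciliated, moved in the same libraries as Gmnc. Of 24 such markers, a list drawn up with earlier results of these data known and so not independent evidence, 21 rose and 0 fell, and none was at 0 counts in all libraries. The share of the list that passed was 87.5%, against 33.1% of all genes tested. The prolactin receptor gene Prlr had the lowest value of the list and was below control in both knockout-labelled libraries without passing (-0.86 ± 0.39, adjusted p = 0.0905). Their summed level was 301 and 307 CPM in control against 1579 and 1589 CPM, and without the abundant carrier gene Ttr it was 123 and 121 against 305 and 296 CPM. Sostdc1, a secreted BMP and Wnt antagonist, was at 1.77 and 2.05 against 14.0 and 13.5 CPM, and the chloride channel gene Clic6 at 3.21 and 3.40 against 16.3 and 16.1 CPM. The secreted lysophospholipase gene Enpp2 rose by 1.18 ± 0.04. The homeobox gene Otx2, which choroid plexus requires, did not pass (0.02 ± 0.07, 95% interval -0.12 to 0.15), with means of 21.5 and 21.8 CPM; both were singled out after their values were seen. The part of these markers in the change of Gmnc was not tested, and in bulk RNA more cells of a type and more RNA per cell cannot be told apart.

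Mcidas, which acts beside and after Gmnc, was close to the detection limit in every library. It had 5 and 3 counts in control and 5 and 3 counts in the libraries labelled knockout, or 0.106 to 0.189 CPM, too few to test. A rise of the size seen for Gmnc was thus not visible for Mcidas, though at this depth single counts decide its level. Its neighbours on chromosome 13 are Ccno, a cyclin-like gene needed for centriole amplification, and Cdc20b, another gene of the same step. The 3 genes start at 112987802 (Ccno), 112993845 (Mcidas) and 113035111 (Cdc20b) on the plus strand. Ccno was at 1.81 and 1.35 CPM in control and at 1.24 and 1.39 CPM in the libraries labelled knockout, where the groups overlap (-0.27 ± 0.26, adjusted p = 0.469, 95% interval -0.80 to 0.26). Cdc20b had 6 and 4 counts against 2 and 1, and was not tested.

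Deup1 builds the deuterosome, the platform on which multiciliated cells make centrioles in bulk. It had 10 and 12 counts in control and 2 and 5 in the libraries labelled knockout, that is 0.378 and 0.425 against 0.0709 and 0.193 CPM. The groups did not overlap, and the gene passed narrowly (-1.61 ± 0.62, adjusted p = 0.044). The call was lost in 6 of the 12 alternatives that tested the gene. These were no filter on low counts, DESeq2, the legacy fit, a threshold of 0.01, and omission of control replicate 1 or of knockout replicate 1 (-1.05, adjusted p = 0.341). Of the 2 genes of centriole amplification that could be tested, Deup1 and Ccno, neither passed as higher.

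Foxj1, the transcription factor that activates genes of motile cilia, was abundant. It lies on chromosome 11 from 116330704 to 116335399 on the minus strand. Control libraries held 32.4 and 34.4 CPM and libraries labelled knockout 25.0 and 24.3 CPM. Both knockout libraries were below both controls, with a log2 fold change of -0.45 ± 0.06 (adjusted p = 1.4e-07) and a 95% interval of the ratio from 0.673 to 0.798. Values over 14 alternatives ran from -0.49 to -0.40, and all passed.

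Rfx2 encodes an RFX factor that binds the X-box, a palindromic motif in front of many ciliary genes, and works with Foxj1 on motile cilia genes. Its level was 10.3 and 9.16 CPM in control and 4.96 and 5.67 CPM in the knockout-labelled libraries (-0.88 ± 0.12, adjusted p = 1.5e-07). The ratio had a 95% interval of 0.458 to 0.641, and all 14 alternatives passed, from -0.98 to -0.79. Rfx3, a relative that serves both primary and motile cilia, was at 87.5 and 86.3 CPM in control and at 85.3 and 85.8 CPM in the knockout-labelled libraries. The Rfx3 groups did not overlap, but the difference was small and did not pass (-0.03 ± 0.04, adjusted p = 0.575), with a 95% interval of the ratio from 0.929 to 1.03. Per kilobase of exon, Foxj1 (12.7 CPM in control) and Rfx3 (7.88 CPM) stood above Rfx2 (1.33 CPM), Ccno (0.618 CPM), Myb (0.409 CPM) and Gmnc (0.146 CPM). In the libraries labelled knockout Gmnc (0.871 CPM per kilobase) stood above Rfx2 (0.727 CPM per kilobase), with no test between genes.

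Most markers of radial glia and astrocytes were lower in the libraries labelled knockout, as Foxj1 and Rfx2 were. Summed levels of 11 radial glial markers were 8328 and 8290 CPM in control against 6879 and 6887 CPM, with 6 lower and 2 higher. Those of 7 astrocyte markers were 3138 and 3157 against 2199 and 2194 CPM, with 6 lower and 1 higher. Abundant genes weigh most in these sums. In group means, Vim went from 2994 to 2421 CPM, Slc1a3 from 1459 to 1144 and Tnc from 1217 to 781. The astrocyte gene Gfap went from 867 to 326 CPM. Over all genes tested, 18.1% passed as lower and 15.1% as higher. Of 10 ependymal markers 8 could be tested, of which 2 rose, 0 fell and 6 did not pass (25%, under the 33.1% of all genes). Their sums were 899 and 904 against 1077 and 1084 CPM, and nearly all of that came from the 2 that rose, Nnat (0.29 ± 0.02) and Cd24a (0.18 ± 0.03), which neurons also express. The part of these cell types in the falls of Foxj1 and Rfx2 was not tested.

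Myb, a transcription factor of dividing progenitors that is also switched on early in multiciliated cell formation, rose from 3.62 and 3.68 CPM to 4.96 and 5.36 CPM (0.49 ± 0.15, adjusted p = 0.0098). The groups did not overlap. Myb shares 559 bp of exon with Gm26577 on the opposite strand, and the strand setting of the counting is not stated in the sources at hand, so reads of such a pair cannot be told apart. The call was lost with DESeq2 (adjusted p = 0.142) and without knockout replicate 2 (adjusted p = 0.0863). Foxn4, a forkhead gene of multiciliated cells and of some neuronal progenitors, had 10 and 2 counts in control and 0 and 7 in the libraries labelled knockout, and was not tested. A count of 0 allows up to 3 counts, or 0.106 CPM in that library.

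**Figure D2:**
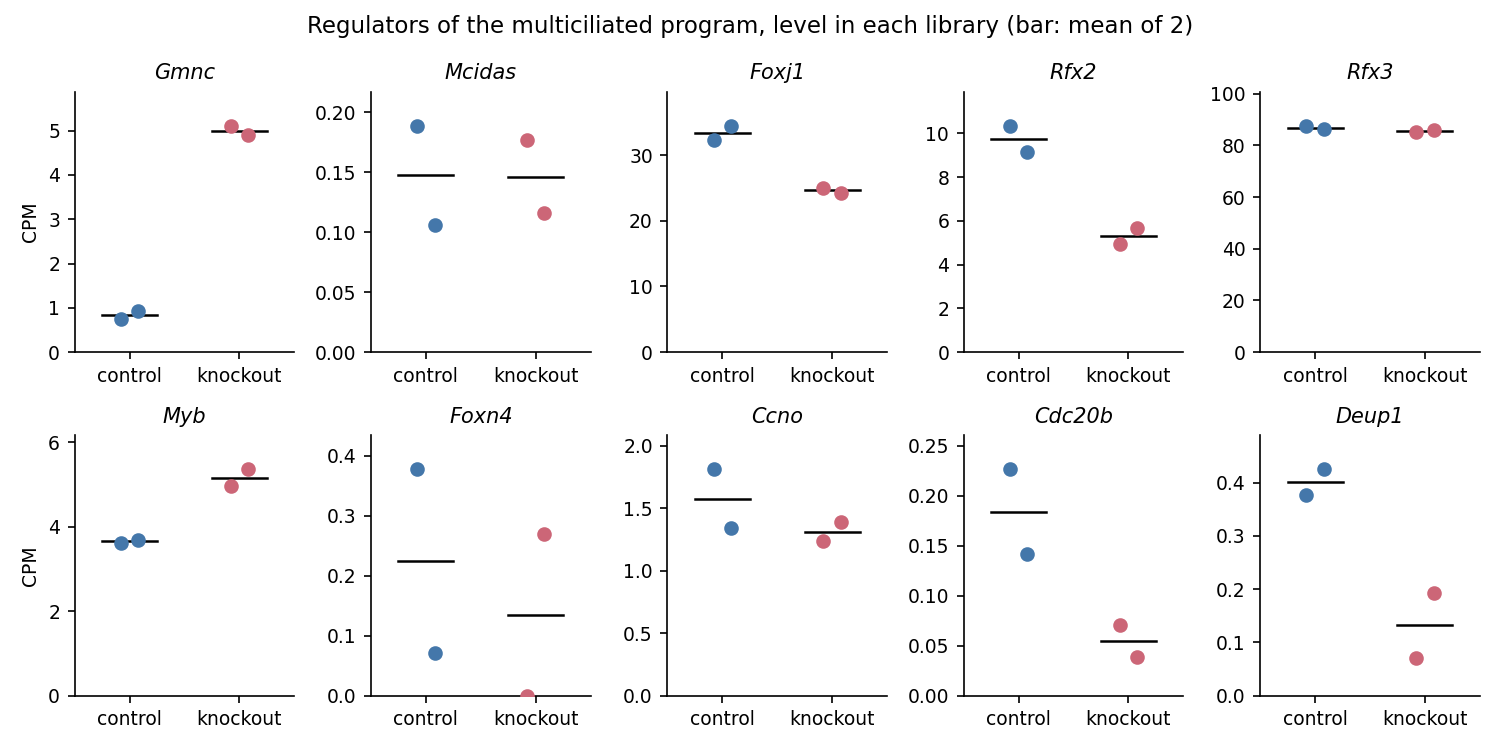
Level in CPM (y axis, from 0, with a separate scale for each gene) of the 10 regulators in the 2 control and 2 knockout libraries; points are libraries and bars group means. Gmnc rises from under 1 to about 5 CPM and Myb from 3.65 to 5.16, Foxj1 and Rfx2 fall, Rfx3 is level on this scale, and Mcidas, Foxn4, Cdc20b and Deup1 stay under 0.43 CPM.

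Summed over the 37 axoneme genes, the level was 184 and 186 CPM in control and 188 and 192 CPM in the libraries labelled knockout, a ratio of 1.03. The knockout-labelled libraries were above the controls by a small margin. On group means, Rsph9 (12.9 and 13.2 against 18.3 and 17.1 CPM) and Rsph3a (22.1 and 21.1 against 21.4 and 28.8 CPM) together rose by more than this margin. No direction of the axoneme genes as a group is thus read from the sum. Signs were even, with 17 of the 34 tested genes positive and 17 negative. The 95% interval lay inside a 1.5-fold change in either direction for 15 of the 34, against 57.4% of genes in the same range of levels, so for the rest of the 34 a change of that size lay within the interval. For 24 of the 41 tested members the libraries of one group all lay to one side of the other, against 65.1% of all genes tested. The knockout libraries were above for 10 members and below for 14, against 34.2% and 31% of all genes tested.

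The strongest axoneme call was Rsph9, whose protein sits in the head of the radial spoke that links outer microtubules to the central pair. It was at 12.9 and 13.2 CPM in control and at 18.3 and 17.1 CPM in the knockout-labelled libraries. The groups were well apart (0.43 ± 0.08, adjusted p = 4.3e-05), and all 14 alternatives passed, with values from 0.38 to 0.48. The spoke head genes Rsph1 (3.02 and 2.87 against 2.84 and 2.66 CPM; -0.10 ± 0.18) and Rsph4a (2.15 and 2.41 against 2.55 and 1.97 CPM; -0.01 ± 0.21) did not pass.

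Rsph3a and Rsph3b, near-identical copies of a spoke stalk gene on chromosome 17 between which reads may have been divided or dropped, did not pass either. Rsph3a was at 22.1 and 21.1 CPM in control and at 21.4 and 28.8 CPM in the libraries labelled knockout, so that the second knockout library alone stood apart. Its value of 0.21 ± 0.08 (adjusted p = 0.056) became -0.02 without knockout replicate 2 and 0.41 (adjusted p = 6e-06) without knockout replicate 1. Rsph3b was 0.10 ± 0.10. Rsph6a, which is known mainly from sperm, and Rsph14 had 0 to 3 counts and were not tested.

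Tektins are filaments that run along the doublet microtubules. Tekt1 was at 2.34 and 1.77 CPM in control and at 3.58 and 3.16 CPM in the knockout-labelled libraries (0.72 ± 0.20, adjusted p = 0.0040). Tekt2 was at 1.02 and 0.991 against 1.53 and 2.08 CPM (0.82 ± 0.27, adjusted p = 0.016). In both genes the knockout libraries stood above the controls. Tekt2 shares 396 bp of exon with Gm12945 on the opposite strand. Both calls rest on few counts, 27 to 101 per library. Tekt1 was lost with DESeq2 (adjusted p = 0.0915), without control replicate 2 (0.0905) and without knockout replicate 1 (0.0613). Tekt2 was lost with DESeq2 (0.177), at a threshold of 0.01, and when control replicate 1 (0.0534), control replicate 2 (0.0727) or knockout replicate 2 (0.231) was omitted. Tekt4, at 0.415 to 0.540 CPM, gave 0.12 ± 0.43.

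Dynein heavy chains are the motors of the axoneme. None of the 5 outer arm chains passed. Dnah5, the outer arm chain found along the whole cilium, was at 3.06 and 3.50 CPM in control and at 2.62 and 2.81 CPM in the knockout-labelled libraries (-0.28 ± 0.18, adjusted p = 0.242), and its partner Dnah9 gave -0.13 ± 0.13. Dnah17, best known from sperm, was at 3.66 and 3.64 against 4.64 and 4.70 CPM and missed the threshold (0.35 ± 0.15, adjusted p = 0.0769). Dnah11 (-0.29 ± 0.26) and Dnah8 (0.18 ± 0.31) were at 0.771 to 1.84 CPM. Ccdc114, which helps dock outer arms on the doublet, gave 0.05 ± 0.16.

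Of the 6 inner arm chains 1 passed. Dnah7b was at 7.89 and 6.26 CPM in control and at 5.64 and 5.01 CPM in the knockout-labelled libraries (-0.41 ± 0.13, adjusted p = 0.015). Its close paralog Dnah7a went the other way without passing, from 0.453 and 0.602 to 0.780 and 1.04 CPM (0.76 ± 0.37, adjusted p = 0.113), and reads that fit both genes could have been dropped or divided. The Dnah7b call was lost with no filter on low counts, with DESeq2, at a threshold of 0.01, and when control replicate 1 was omitted (-0.24, adjusted p = 0.298) or knockout replicate 2 was (adjusted p = 0.123). Dnah1 gave -0.31 ± 0.13 (adjusted p = 0.0569), Dnah10 -0.32 ± 0.29, Dnah2 0.08 ± 0.14 and Dnah6 0.29 ± 0.31. The dynein intermediate chain genes Dnai1 (0.05 ± 0.28) and Dnai2 (-0.09 ± 0.15) and the inner arm light intermediate chain gene Dnali1 (-0.38 ± 0.34) did not pass.

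Assembly factors fold and preload dynein arms in the cytoplasm. Dnaaf5 was at 21.0 and 23.2 CPM in control and at 19.2 CPM in both libraries labelled knockout (-0.21 ± 0.07, adjusted p = 0.018). The call was lost with DESeq2, at a threshold of 0.01, and when a library was omitted, namely control replicate 2 (-0.14, adjusted p = 0.249) or either knockout library (0.0614 and 0.0612). Dnaaf5 shares 373 bp of exon with Gm15672 on the opposite strand. Dnaaf2 (-0.03 ± 0.08), which shares 1107 bp with the opposite-strand gene 9330151L19Rik and up to 757 bp with genes on its own strand, and Dnaaf3 (-0.27 ± 0.16) did not pass, and Dnaaf1, with 4 to 9 counts, was not tested.

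**Figure D3:**
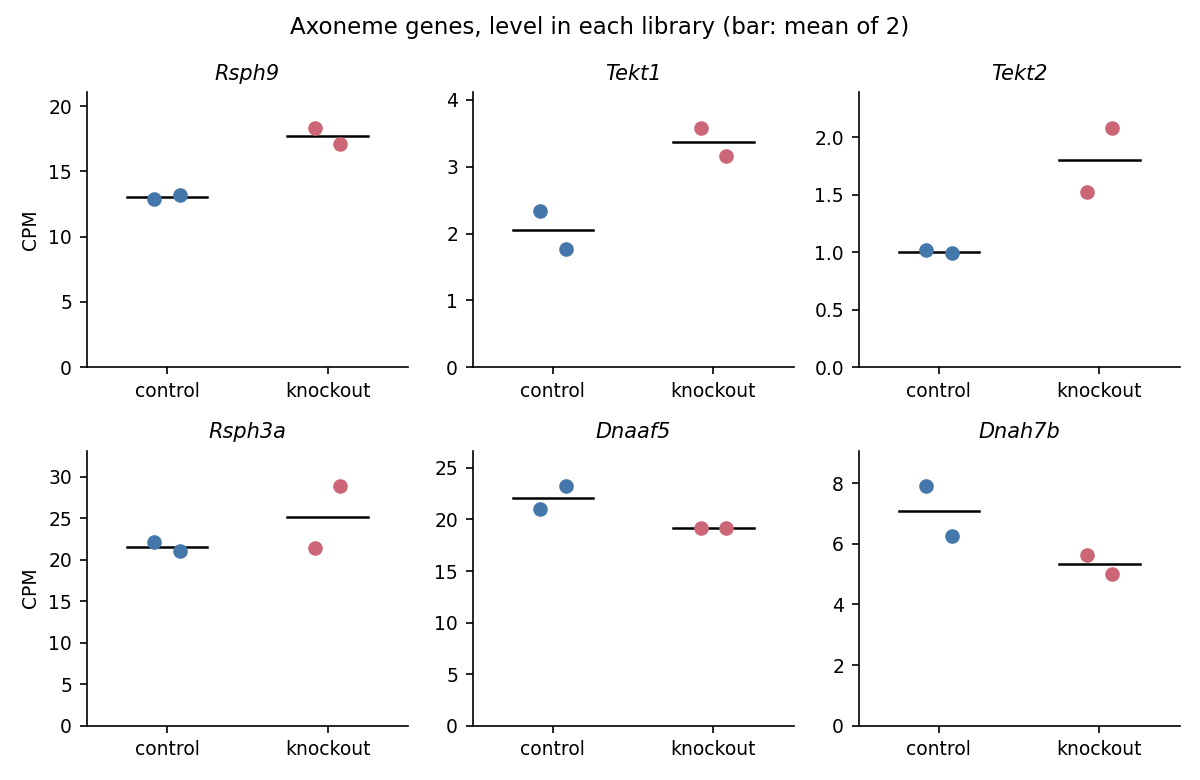
Level in CPM (y axis, from 0, separate scale for each gene) of the 5 axoneme genes that passed and of Rsph3a in each library; points are libraries and bars group means. Rsph9, Tekt1 and Tekt2 stand higher and Dnaaf5 and Dnah7b lower in both knockout libraries, and Rsph3a is high in the second knockout library only, at 28.8 CPM.

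The remaining axoneme genes did not pass. Ccdc39 and Ccdc40, which form the molecular ruler that spaces the inner arms and spokes, gave -0.02 ± 0.08 and -0.09 ± 0.14. Ccdc39 shares 1256 bp of exon with the gene Ttc14 on the opposite strand. The central pair genes Hydin (0.08 ± 0.26), Spag6 (0.22 ± 0.14) and Spag17 (-0.35 ± 0.45) also missed. Cfap43 (0.31 ± 0.15, adjusted p = 0.114) and Cfap44 (-0.14 ± 0.13), which tether inner arm motor domains, had opposite signs. Cfap43 was at 4.11 and 4.92 against 4.86 and 6.48 CPM, where the groups overlap, and passed without knockout replicate 1 (0.51, adjusted p = 0.020). The ciliary adenylate kinase gene Ak7 gave 0.24 ± 0.25.

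Wider lists of cilia genes were measured as well. Of 58 tested genes of motile cilia outside the 47 members, 3 rose and 2 fell (8.62%), with a median of 0.05 and values from -0.47 to 1.40. Those that rose were the nexin-dynein regulatory complex gene Drc1 (0.32 ± 0.10), Cfap126 (0.62 ± 0.17) and Ak8 (1.00 ± 0.40), and those that fell were the assembly factor gene Spag1 (-0.42 ± 0.10) and the dynein light chain gene Dnal1 (-0.12 ± 0.05). Of 22 genes of centriole assembly 5 rose and 0 fell, namely Cetn3 (0.24 ± 0.04), Cby1, Cep83, Odf2 and Stil, which is required to form new centrioles. Drawn from 52 genes of intraflagellar transport and the primary cilium, 4 rose and 8 fell, all by less than 0.25 on the log2 scale, with Tulp3 at -0.25 ± 0.04 and Ift46 at 0.23 ± 0.05. Of 12 partners of the regulators, 3 rose and 0 fell, namely Rfx4 (0.18 ± 0.03), Tfdp2, a dimer partner of E2F factors (0.17 ± 0.04), and Rfx7 (0.09 ± 0.03). The shares that passed were 22.7% for centriole assembly, 23.1% for the primary cilium list and 25% for the partners. These and the 8.62% above all lay under the 33.1% of all genes tested, of which 15.1% were higher and 18.1% lower. The lists differ in level, and no share was computed for genes matched to them in level. Nothing is thus read from their distance to 33.1%. In all 22 genes of the centriole list and all 52 of the primary cilium list the 95% interval lay inside a 1.5-fold change, against 24 of the 58 other motile cilia genes and 78.4% of all genes tested.

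The other cell types that a cortical dissociation can hold moved both ways. Markers rose for 6 and fell for 0 of 7 tested for intermediate progenitors, rose for 6 and fell for 2 of 10 for neurons, and rose for 4 and fell for 1 of 8 for the oligodendrocyte lineage. They fell for 4 and rose for 0 of 5 tested for microglia, fell for 7 and rose for 1 of 8 for mural cells and fibroblasts, and fell for 2 and rose for 1 of 5 for endothelium. Over all genes tested, 15.1% passed as higher and 18.1% as lower. Microglial markers were scarce, with sums of 4.87 and 5.77 CPM in control against 2.27 and 1.58 CPM. The Notch ligand gene Dll1, which progenitors present to their neighbours, was at 71.6 and 74.9 against 132 and 136 CPM (0.87 ± 0.04). Hes5, a Notch target gene, was at 32.0 and 34.9 against 57.5 and 67.1 CPM (0.89 ± 0.06, adjusted p = 1.5e-15). It belongs to the radial glial list, in which 6 of 11 markers fell and 2 rose. The part of these cell types and Notch genes in the values of the regulators was not tested.

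**Figure D4:**
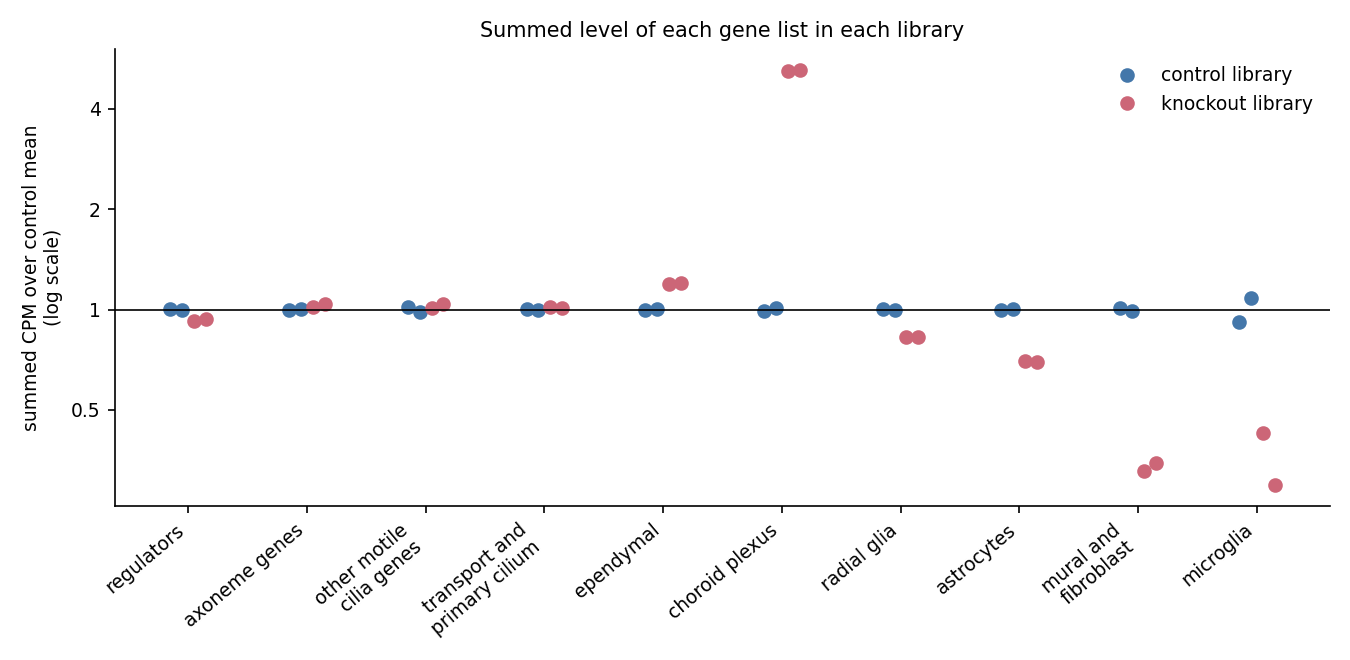
Summed CPM of each gene list in each library divided by the mean of the 2 control libraries (y axis, log scale); each point is a library. Regulators, axoneme genes, other motile cilia genes and the primary cilium list stay near 1, choroid plexus markers lie near 5, ependymal markers at 1.2, and the radial glial, astrocyte, mural and microglial lists lie below 1. The regulator sum is mostly Rfx3 and Foxj1, and it does not show the opposite changes of Gmnc and Rfx2.

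Sequence in front of the members was searched for the X-box bound by RFX factors, since Rfx2 fell and Rfx3 did not pass. Other RFX genes rose, namely Rfx4 (159 and 155 against 179 and 177 CPM) and Rfx7 (126 and 120 against 129 and 134 CPM). Which RFX factor acts on the members was not tested. Windows were the 250 bases before each annotated RefSeq start (GRCm38.p6), in which 43 of the 47 members matched. Dnaaf1, Foxj1, Rsph1 and Rsph4a were the other 4. The X-box was written as the half-sites GTNNCC and GNAAC set 3 bases apart, where N is any base, and searched on both strands. It was found for 9 of 43 members (20.9%), against 2.07% of the 27025 genes in the table. A looser form with GNNAC as its second half-site, which holds all matches of the stricter one, was added after the Tekt1 sequence had been seen. It was found for 11 members (25.6%), against 4.39% of genes. The sequences below end at the base before the start and run 5′ to 3′ on the gene's strand, with matches to the looser form in capitals. They show the members that passed and hold a match (Deup1, Dnaaf5 and Tekt1), 3 that hold a match and did not pass (Cfap44, Dnaaf2 and Hydin), and Gmnc, which holds none in its 250 bases.
Gmnc, minus strand, chr16:26991653-26991752: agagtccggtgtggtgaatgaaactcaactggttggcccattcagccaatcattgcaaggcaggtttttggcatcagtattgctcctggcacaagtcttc
Deup1, minus strand, chr9:15627847-15627946: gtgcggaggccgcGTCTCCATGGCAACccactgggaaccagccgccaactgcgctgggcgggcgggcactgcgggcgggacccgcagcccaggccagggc
Dnaaf5, plus strand, chr5:139150175-139150234: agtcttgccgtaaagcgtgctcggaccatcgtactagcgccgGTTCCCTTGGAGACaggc
Tekt1, minus strand, chr11:72361883-72361942: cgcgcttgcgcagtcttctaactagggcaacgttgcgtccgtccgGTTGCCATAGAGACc
Cfap44, plus strand, chr16:44394739-44394798: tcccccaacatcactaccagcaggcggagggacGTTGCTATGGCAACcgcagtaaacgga
Dnaaf2, minus strand, chr12:69198430-69198489: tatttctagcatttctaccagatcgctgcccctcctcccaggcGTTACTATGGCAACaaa
Hydin, plus strand, chr8:110266917-110266976: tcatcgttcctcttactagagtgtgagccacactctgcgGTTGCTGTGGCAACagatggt

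Calls among members with and without a match were counted, with no test between them. Of the 9 tested members with the stricter form, 2 fell (Deup1 and Dnaaf5), 0 rose and 7 did not pass, with a median of -0.03. Of the 29 tested members searched without it, 5 rose, 2 fell and 22 did not pass, with a median of 0.05. With the looser form the counts were 1 higher and 2 lower of 11, and 4 higher and 2 lower of 27. Over all genes tested, 33.1% passed, 15.1% as higher and 18.1% as lower. The calls of Deup1 and Dnaaf5 were each lost in several alternatives, and with so few members no difference is read from these counts. The forkhead motif GTAAACA was found for 3 members (6.98%, against 3.54% of genes), namely Ak7, Cfap43 and Dnah17. The E2F motif TTCCCGC was found for Deup1 and Cdc20b (4.65%, against 4.38%), and the RBPJ motif GTGGGAA of Notch signalling for Dnai1 (2.33%, against 6.18%). None of the 4 motifs was found in the 250 bases before Gmnc. These matches describe letters in the windows and are not binding sites.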

How the data were processed

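Each library has 1 deposited table of raw, unnormalized counts by gene symbol. The submitters' processing notes list HISAT2 2.2.1, HTSeq 0.12.4, DESeq2 1.26.0 and mm10; neither the strand setting nor the annotation is stated in the sources at hand. Summary lines for unassigned reads (25.2% to 26.1% of entries) entered neither library sizes nor tests.

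Groups came from sample titles. All 24421 genes entered edgeR 4.0.16 (R 4.3.3): filterByExpr, TMM scaling, quasi-likelihood F test (legacy off), Benjamini-Hochberg adjustment over 15012 genes, threshold 0.05. Standard errors were obtained as |log2 fold change| divided by √F, and 95% intervals use the fit's degrees of freedom. With 2 against 2 libraries no exact permutation p can go below 0.333, so none was used. Replicates differed by more than sampling noise (chi-square per gene 1.96 and 2.2). Positions and exon lengths came from GENCODE M21. The steps were tested on simulated counts, with a single spread for all genes and changes planted only in better counted genes. That test does not cover the scarce members.

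Members and lists were chosen with earlier results of these data known. All regulators, all axoneme genes that passed and other axoneme genes of at least 1 CPM are named. From further lists at most 4 genes with the smallest p are named, and for several lists fewer. None is named for neurons, the oligodendrocyte lineage, microglia, mural cells and fibroblasts, or endothelium. Others were singled out after their values were seen. Alternatives were 3 scalings, 2 filters, DESeq2 1.42.0, limma 3.58.1 (voom), the legacy fit, a stricter threshold, a replicate block and omission of each library. Intervals from counts cover these libraries only, and reads carry no molecular identifiers.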

Additional observations from a re-analysis of the deposited data

How the results depend on the processing

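Of 14 alternatives, all kept the calls of Gmnc, Foxj1, Rfx2 and Rsph9. DESeq2 gave the lowest count of genes that passed, 2697 (1055 higher, 1642 lower) against 4974, with 4 members, 3 regulators and 1 axoneme gene against 10, 5 and 5. At a threshold of 0.01, 6 members and 2 axoneme genes passed. Omission of each library in turn gave 3991 to 4285 genes, 6 to 9 members, 4 regulators and 2 to 5 axoneme genes; the lowest axoneme count arose without control replicate 2 and without knockout replicate 2. Where an omission leaves 1 library in a group, it is assumed to vary like the other group. The regulator median then ran from -0.347 to -0.0436 (the latter without control replicate 1) and the axoneme median from -0.0702 (without knockout replicate 1) to 0.0304. The axoneme median was 0.042 with upper quartile scaling and -0.0224 with no filter. Upper quartile scaling turned the balance of calls to 2939 higher and 2288 lower, while moving the median of all genes by 0.027. The replicate block gave 5324 genes, 11 members, 5 regulators and 6 axoneme genes, with medians of -0.27 and 0.01; the extra axoneme call was Rsph3a (adjusted p = 0.0234), and it changed no other call. Deviations of same-numbered libraries were not correlated (r = -0.0165 across 15012 genes, which are not independent). With 2 libraries per group this value cannot tell whether same-numbered libraries share a litter, day or preparation, and the labels do not state it.

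Over the 41 tested members and the alternatives that tested each, signs changed for axoneme genes that had not passed and for no other member. With upper quartile scaling Ccdc39 became 0.00421 and Rsph4a 0.0121. When each library was left out in turn, values ran from -0.0722 to 0.0282 for Ccdc39, from -0.247 to 0.526 for Hydin (-0.00199 without knockout replicate 1), from -0.153 to 0.0842 for Dnaaf2 and from -0.103 to 0.212 for Dnai1. They ran from -0.187 to 0.0256 for Dnai2, from -0.584 to 0.0351 for Dnah10, from -0.187 to 0.678 for Dnah6 and from -0.04 to 0.128 for Ccdc114. They ran from -0.361 to 0.55 for Dnah8, from -0.0194 to 0.412 for Rsph3a and from -0.223 to 0.153 for Rsph4a. The cause of these changes was not tested. Depth limits Mcidas, Foxn4, Cdc20b, Dnaaf1, Rsph6a and Rsph14, which had 0 to 10 counts per library.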

Other observations

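Several scarce genes of the wider motile cilia list stood higher in both libraries labelled knockout without passing, or passed narrowly. They were picked after their values were seen, and only from genes that were higher. Values of the list ran from -0.47 to 1.40, and 3 passed as higher and 2 as lower. Armc4, which docks outer dynein arms, had means of 0.163 ± 0.07 and 0.444 ± 0.026 CPM (SD, n = 2 libraries each; 1.40 ± 0.57, adjusted p = 0.0564). Pifo, a gene of ciliary disassembly, had 0.550 ± 0.077 and 1.01 ± 0.018 CPM (0.88 ± 0.35, adjusted p = 0.0508), and Ak8, an adenylate kinase gene, 0.423 ± 0.148 and 0.851 ± 0.05 CPM (adjusted p = 0.0481). In that list the groups did not overlap for 16 genes that were higher and 7 that were lower of 58 tested, against 34.2% and 31% of all genes tested. Both counts are smaller shares than those of all genes, so no rise of the list is read from them.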
